A study of Mus musculus with 16 samples.

Results

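Transthyretin mRNA (Ttr) separated 16 mouse hippocampus libraries into 2 kinds. In 4 libraries Ttr was under 100 CPM (reads of a gene per 1e6 reads counted in its library), and in the other 12 it was at or above 100 CPM. The split was read from the data and is not a group of the study: the libraries were chosen by their measured level of Ttr, so its own values are given as a description, without a test. Every other gene was then compared between the 12 high-Ttr libraries and the 4 low-Ttr libraries.

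The libraries came from C57BL/6 wild-type mice, 4 in each of 4 groups: vehicle or beta-sitosterol (a plant sterol, given intraperitoneally at 100 mg/kg), with the hippocampus taken 1 h or 6 h after the injection. The labels name no transgene and no other agent in any group. Total RNA was prepared with a column kit and made into mRNA libraries, and the submitters' labels state that RNA of a RIN of at least 7 was used. The counts summed to between 24815581 and 31266644 reads per library. The labels give each library its own mouse number but no age, sex or dissection date, and do not say how the tissue at the edge of the hippocampus was handled.

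The choroid plexus is a folded sheet of epithelium that floats in the brain's ventricles and secretes cerebrospinal fluid. In the lateral ventricle it is attached along the fimbria, beside the hippocampus, so that a dissected hippocampus may carry some of it. Its epithelial cells secrete transthyretin, a carrier protein of blood and cerebrospinal fluid, in very large amounts, and move water, bicarbonate, chloride and potassium through a set of channels and transporters that few other brain cells use. The neighbouring ependyma, which lines the ventricle wall, bears motile cilia. In bulk RNA of this kind, fewer cells of a type and less RNA per cell cannot be told apart.

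The low-Ttr libraries were mouse 5 of the vehicle 1 h group (45.2 CPM of Ttr), mouse 14 of the vehicle 6 h group (46.6 CPM), and mice 17 and 19 of the beta-sitosterol 6 h group (58.2 and 65.8 CPM). No library of the beta-sitosterol 1 h group was under 100 CPM. In the 12 high-Ttr libraries Ttr ranged from 678 CPM to 6250 CPM, with a median of 2092 CPM. Just inside the threshold stood mouse 19 at 65.8 CPM, and just outside it stood mouse 18 of the same group at 678 CPM, 10.3 times higher. Ttr took 0.0045% to 0.0066% of the reads of the low-Ttr libraries and 0.0678% to 0.625% of the reads of the others. Within the 12 libraries the highest was 9.21 times the lowest, so that the split leaves a wide spread on its upper side.

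The genes that mark choroid plexus epithelium followed Ttr. Besides Ttr itself, 14 markers of this epithelium were examined: Kcne2, Folr1, Aqp1, Kcnj13, Clic6, Enpp2, Sostdc1, Kl, Prlr, Otx2, F5, Steap1, Calml4 and Tmem72. Of these 14 genes, 13 were called higher in the high-Ttr libraries by edgeR's quasi-likelihood test with Benjamini-Hochberg adjustment at 0.05, against 2.88% of the 17054 genes tested. In the same 13 genes all 4 low-Ttr libraries lay below all 12 others, against 2.22% of all genes tested. The exception was Tmem72, a membrane protein, at 78.5 to 93.2 CPM in the low-Ttr libraries and 74.7 to 162 CPM in the others (log2 difference 0.41, SE 0.16, adjusted p = 0.227). None of the 14 genes was at 0 in any low-Ttr library. Steap1 passed the filter on low counts only through the 12 others. The markers were chosen with earlier results of these data known, so both counts of 13 are a description.

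**Figure D1:**
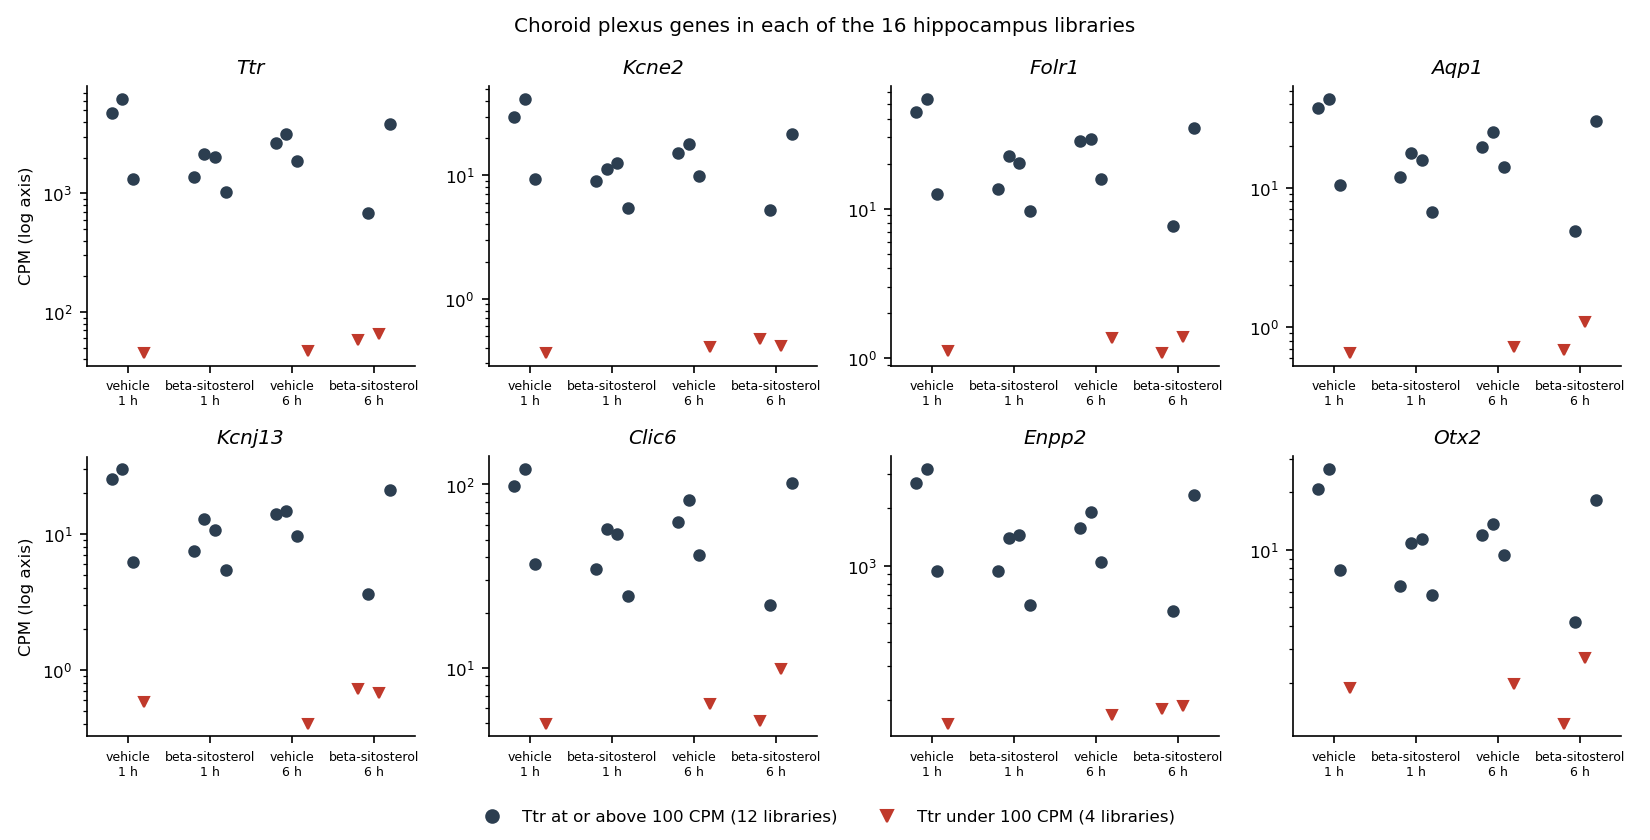
CPM (log axis) of Ttr and 7 choroid plexus genes in each of the 16 libraries, by treatment and time; triangles are the 4 libraries with Ttr under 100 CPM and circles the other 12. In each of the 8 panels the triangles lie below every circle, and no triangle falls in the beta-sitosterol 1 h group.

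The starts of 4 named genes are printed. Kcne2 had the largest difference of the named genes, and Kcnj13 was the gene whose level ran closest to Ttr. Mfrp and Otx2 were picked because a start window of each holds the letters bound by OTX homeobox factors. Of these factors OTX2 is the one known for its need in choroid plexus. Each window runs from 250 bases before to 50 bases after an annotated start (RefSeq, GRCm38.p6), 5′ to 3′ on the strand of the gene, and capitals mark GGATTA. Windows are chr16:92292139-92292438 on the plus strand for Kcne2, chr1:87394680-87394979 on the minus strand for Kcnj13, chr9:44101520-44101819 on the plus strand for Mfrp, and chr14:48665060-48665359 on the minus strand for the third of the 4 annotated starts of Otx2.
Kcne2: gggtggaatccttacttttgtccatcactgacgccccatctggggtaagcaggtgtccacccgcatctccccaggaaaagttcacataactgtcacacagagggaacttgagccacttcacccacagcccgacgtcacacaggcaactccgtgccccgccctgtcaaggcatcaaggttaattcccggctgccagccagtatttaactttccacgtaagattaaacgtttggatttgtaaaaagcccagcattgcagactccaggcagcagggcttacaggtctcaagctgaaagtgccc
Kcnj13: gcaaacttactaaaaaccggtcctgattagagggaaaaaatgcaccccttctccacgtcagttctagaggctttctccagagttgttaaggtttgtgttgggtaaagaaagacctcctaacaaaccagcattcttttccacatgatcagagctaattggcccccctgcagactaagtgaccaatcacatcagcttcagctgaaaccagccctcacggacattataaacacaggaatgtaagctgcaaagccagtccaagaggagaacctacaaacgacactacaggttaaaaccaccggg
Mfrp: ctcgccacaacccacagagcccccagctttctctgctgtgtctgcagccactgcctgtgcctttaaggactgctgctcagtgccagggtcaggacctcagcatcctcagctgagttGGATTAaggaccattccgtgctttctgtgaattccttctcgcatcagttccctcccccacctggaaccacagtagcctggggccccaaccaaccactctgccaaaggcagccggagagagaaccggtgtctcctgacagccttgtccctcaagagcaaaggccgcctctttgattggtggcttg
Otx2: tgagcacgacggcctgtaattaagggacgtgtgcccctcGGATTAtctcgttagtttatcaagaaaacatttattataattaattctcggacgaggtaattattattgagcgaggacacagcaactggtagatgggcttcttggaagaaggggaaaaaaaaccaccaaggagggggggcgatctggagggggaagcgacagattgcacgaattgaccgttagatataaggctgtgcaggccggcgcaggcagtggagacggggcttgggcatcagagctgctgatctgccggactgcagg

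GGATTA and its reverse complement TAATCC, the only motif searched, on both strands, were in 7.06% of all 32851 start windows and in 5.74% of the 15774 windows of genes tested. Of the 469 windows of genes called higher in the high-Ttr libraries, 7.89% held it. The letters begin at position 117 of the Mfrp window and at position 40 of the Otx2 window, counted from 1 at the 5′ end. They were in neither of the 2 windows of Kcne2, of which the first is printed, nor in those of Kcnj13, Aqp1 or Slc4a5. The other Otx2 windows did not hold them. Pifo had TAATCC in the second of its 2 windows, and Steap2 had both forms in the first of its 3. A match is a run of letters, not a shown binding site.

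Kcne2, a beta subunit of potassium channels on the apical side of the epithelium, lies at chr16:92292389-92298129 (GRCm38; the gene ID is ENSMUSG00000039672). It was at 0.362 CPM in mouse 5, 0.403 CPM in mouse 14, 0.468 CPM in mouse 17 and 0.414 CPM in mouse 19. In the 12 high-Ttr libraries it ranged from 5.28 CPM to 41.9 CPM with a median of 11.9 CPM. The groups did not overlap, and the ratio of the medians was 29.2. With the 4 treatment and time groups as a block, the log2 difference was 5.33 (SE 0.75, adjusted p = 0.0102 by edgeR's quasi-likelihood test), which is 40.2-fold.

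Folr1, a folate receptor that carries folate into cerebrospinal fluid, lies at chr7:101858331-101870788 (ENSMUSG00000001827). It was at 1.12 CPM in mouse 5, 1.37 CPM in mouse 14, 1.08 CPM in mouse 17 and 1.39 CPM in mouse 19, against 7.62 CPM at the lowest, 21.4 CPM at the median and 54.3 CPM at the highest of the 12. All 12 lay above the 4, with a log2 difference of 4.35 (SE 0.68, edgeR adjusted p = 0.0122). Aqp1, the water channel of the apical membrane, lies at chr6:55336432-55348555 (ENSMUSG00000004655). It was at 0.651 CPM in mouse 5, 0.725 CPM in mouse 14, 0.684 CPM in mouse 17 and 1.09 CPM in mouse 19, and the 12 others ran from 4.87 CPM over a median of 16.9 CPM to 43.7 CPM. Mouse 19, which had the most Ttr of the 4, also had the most Aqp1 of the 4. The log2 difference of Aqp1 was 4.73 (SE 0.77, edgeR adjusted p = 0.0128).

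Over all genes tested, 491 were higher in the high-Ttr libraries (2.88%) and 27 were lower (0.158%), 518 in all (3.04%). Of the 491, 225 differed by more than 2-fold, and the median fold of the 491 was 1.87. Of the 27 lower genes, 1 differed by more than 2-fold and the median fold was 1.2; the 1 gene, named after its value was seen, is Cytl1, which encodes a secreted cytokine-like protein (mean 0.989 CPM in the 4 and 0.433 CPM in the 12, log2 difference -1.06, SE 0.21, adjusted p = 0.0128). The p-values say how closely a gene follows a split that was read from the same libraries. Some of the 491, Steap1 among them, passed the filter on low counts only through the 12 high-Ttr libraries. Without mouse 5, the low-Ttr library of the vehicle 1 h group, no gene was called by edgeR (1406 had an unadjusted p under 0.05), although Kcne2 was then still 4.97 higher on the log2 scale (SE 0.91, adjusted p = 0.116). Leaving out another mouse also moved the 518 calls: mouse 14 left 139, mouse 20 left 104, mouse 17 left 263, mouse 2 left 300 and mouse 12 left 332, whereas 793 were called when mouse 18 was dropped and 786 when mouse 4 was.

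**Figure D2:**
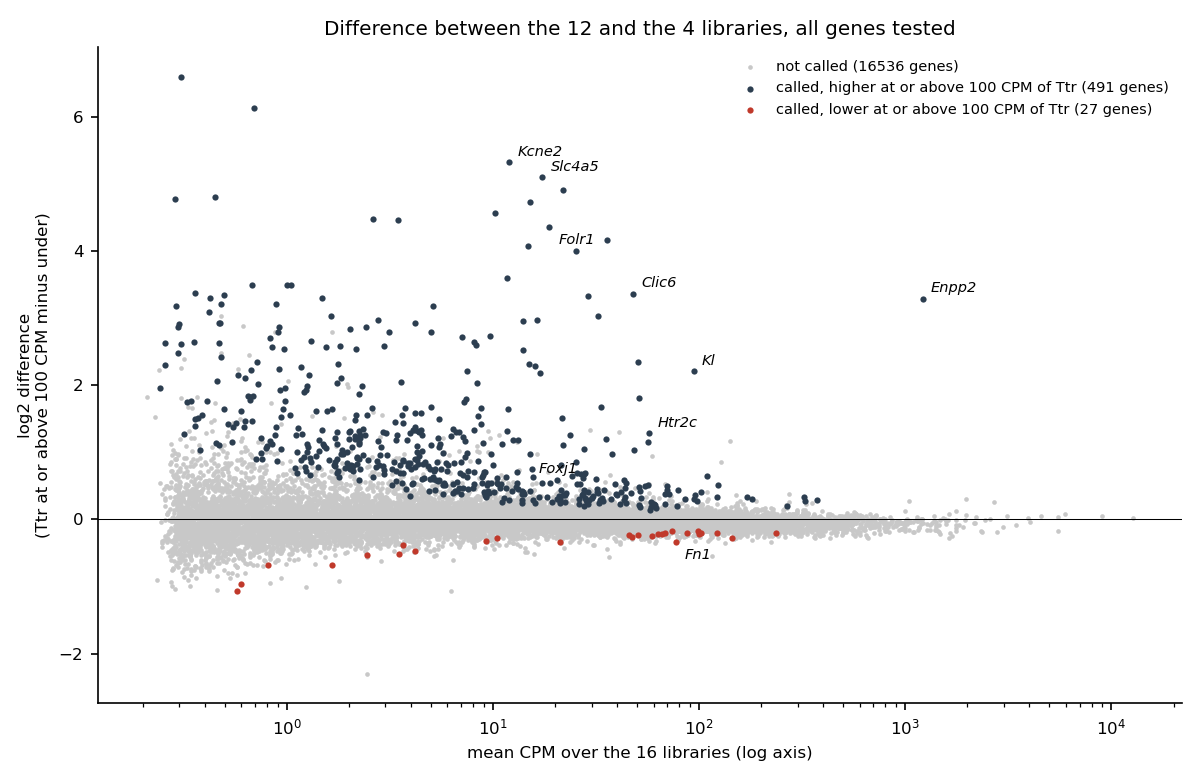
Each point is a gene: its mean CPM over the 16 libraries (log axis) against its log2 difference between the 12 high-Ttr and the 4 low-Ttr libraries, with the 491 genes called higher in dark blue and the 27 called lower in red. Among the genes called higher Kcne2 stands at 5.33 on the log2 scale, with 2 genes of under 1 CPM above it whose fitted values rest on few reads, whereas the genes called lower go no further than 2.09-fold.

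Among 11 secreted products of the choroid plexus other than Ttr, 6 were higher in the high-Ttr libraries and none was lower, against 2.88% and 0.158% of all genes tested; the median log2 difference was 1.30, beside -0.01 over all genes. Enpp2, the secreted enzyme autotaxin that makes lysophosphatidic acid, was at 150 CPM in mouse 5, 166 CPM in mouse 14, 178 CPM in mouse 17 and 185 CPM in mouse 19. The 12 others ran from 582 CPM over a median of 1422 CPM to 3187 CPM, all above the 4. Its log2 difference was 3.29 (SE 0.50, edgeR adjusted p = 0.0114). F5, the coagulation factor V gene, differed by 4.17 (SE 0.73, adjusted p = 0.0144), from 2.21 to 3.76 CPM in the 4 and from 11.3 to 93.7 CPM in the 12. The augurin gene 1500015O10Rik, also called Ecrg4, differed by 4.00 (SE 0.64, adjusted p = 0.0123). Sostdc1, a secreted antagonist of BMP and Wnt signals, differed by 2.95 (SE 0.47, adjusted p = 0.0123), and Kl, which encodes klotho, by 2.21 (SE 0.42, adjusted p = 0.0192). Igf2, a growth factor made by choroid plexus and meninges, did not pass (log2 difference 1.17, SE 0.31, adjusted p = 0.0709): its 64.2 to 96.4 CPM in the 4 overlapped the 80.9 to 279 CPM of the 12.

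Among 25 channels and transporters, 16 were higher (2.88% over all genes) and none was lower, with a median log2 difference of 0.97. The 16 include Slco1a5 and Slc16a8, at means of 0.168 and 0.365 CPM in the 4. These genes passed the filter on low counts only through the 12 others, so that the count of 16 is a description. Slc4a5, a sodium bicarbonate cotransporter, was at 0.434 CPM in mouse 5, 0.524 CPM in mouse 14, 0.864 CPM in mouse 17 and 1.02 CPM in mouse 19. It ranged from 6.97 CPM over a median of 20.9 CPM to 47.8 CPM in the 12, with no overlap and a log2 difference of 5.11 (SE 0.77, edgeR adjusted p = 0.0114). Kcnj13, the inwardly rectifying potassium channel of this epithelium, was at 0.403 to 0.72 CPM in the 4 and at 3.58 to 29.8 CPM in the 12 (log2 difference 4.57, SE 0.75, adjusted p = 0.0128). Kcnj13 lies inside Gigyf2, which is read on the opposite strand, and no strand setting of the counting is given in the sources used here. Clic6, of the chloride intracellular channel family, was at 4.95 CPM in mouse 5, 6.37 CPM in mouse 14, 5.15 CPM in mouse 17 and 9.89 CPM in mouse 19. In the 12 it ranged from 21.9 to 121 CPM (log2 difference 3.37, SE 0.57, adjusted p = 0.0138).

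The list of 25 receptors and surface proteins also holds other products of the epithelium, among them the keratins Krt8 and Krt18. It had the highest median of the choroid plexus lists other than the 3 given markers, 2.35, with 20 members higher (2.88% over all genes) and none lower. Wfdc2, a small secreted protease-inhibitor-like protein, and Steap1, of a family of metalloreductases, differed by 4.48 (SE 0.81) and 4.46 (SE 0.77), with edgeR adjusted p of 0.0144 and 0.0132. Both were near the limit of counting in the low-Ttr libraries, at 0.0723 to 0.226 CPM for Wfdc2 and 0.145 to 0.282 CPM for Steap1. They passed the filter on low counts only through the 12 others, so their p-values add no support. Both are among the 20 counted, as are Cltrn and Cldn3, at means of 0.018 and 0.184 CPM in the 4. Cltrn and Cldn3 passed the filter in the same way, so that the count of 20 is a description. Cldn2, the claudin of leaky tight junctions, differed by 4.08 (SE 0.73, adjusted p = 0.0161), and Prlr, the prolactin receptor, by 3.33 (SE 0.62, adjusted p = 0.0183). Htr2c, the serotonin receptor that choroid plexus shares with neurons, differed by less: 18.5 CPM in mouse 5, 41.3 CPM in mouse 14, 23.6 CPM in mouse 17 and 29.3 CPM in mouse 19 stood against 46.9 to 109 CPM in the 12. Its ranges did not overlap, the log2 difference was 1.28 (SE 0.30, adjusted p = 0.0417), and mouse 14 came closest to the 12. Further genes among the 12 largest differences were Mfrp (4.91, SE 0.78, adjusted p = 0.0123), which shares its locus with C1qtnf5 on the same strand and with Gm20444 and Rnf26 on the other, and Col8a1, a chain of collagen VIII (3.60, SE 0.69, adjusted p = 0.0192).

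Of 6 transcription factors of the choroid plexus and roof plate that were tested, 4 were higher, against 2.88% of all genes tested, and none was lower (median log2 difference 1.23); Lmx1b did not pass the filter on low counts. Otx2 was at 1.88 CPM in mouse 5, 1.98 CPM in mouse 14, 1.22 CPM in mouse 17 and 2.71 CPM in mouse 19. It ranged from 4.19 CPM over a median of 11.1 CPM to 26.5 CPM in the 12, above all 4 (log2 difference 2.73, SE 0.52, edgeR adjusted p = 0.0192). It overlaps Otx2os1 on the opposite strand and Gm49154 on its own. Lmx1a, a LIM homeobox factor of the roof plate and cortical hem, differed by 2.58 (SE 0.36) with the smallest adjusted p of the comparison, 0.0085. At 0.216 to 0.484 CPM in the 4, it passed the filter on low counts only through the 12 others. Lmx1a is among the 4 factors counted as higher, so that this count is a description. Msx1 differed by 1.13 (SE 0.22, adjusted p = 0.0151), and Foxj1, the factor that switches on motile cilia, by 0.97 (SE 0.17, adjusted p = 0.0122). Zic1, which is also expressed in septum and meninges, had a difference of 1.33 (SE 0.36) that did not pass (adjusted p = 0.0789), and its ranges overlapped. Tbx3 went the other way, with a difference of -0.36 (SE 0.11) that did not pass (edgeR adjusted p = 0.0909). For Tbx3 all 4 low-Ttr libraries lay above all 12 others, which 0.0997% of all genes tested had.

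Genes of the ependyma and of motile cilia moved with the choroid plexus genes. Of 24 such genes, 17 were higher in the high-Ttr libraries, against 2.88% of all genes tested, and none was lower; all 24 differences were above 0 and their median was 0.95. Summed over the list, they reached 57.0 to 84.5 CPM in the 4 and 96.4 to 173 CPM in the 12, and each of the 24 had reads in the low-Ttr libraries. Pifo, which acts at the base of the primary cilium, was at 0.434 to 0.715 CPM in the 4 and at 1.25 to 4.13 CPM in the 12 (log2 difference 2.04, SE 0.36, edgeR adjusted p = 0.0114). Mlf1 differed by 1.67 (SE 0.27, adjusted p = 0.0085) and Cfap126, a cilia and flagella associated protein, by 1.38 (SE 0.26, adjusted p = 0.0128), both with ranges apart. Among the 17 is 1700012B09Rik, at 0.202 to 0.451 CPM in the 4, which passed the filter on low counts only through the 12 others. Dnah5, an axonemal dynein heavy chain, did not pass, at 6.48 to 9.71 CPM in the 4 and 8.15 to 11.9 CPM in the 12 (log2 difference 0.23, SE 0.11, adjusted p = 0.287). Whether the cilia genes came with choroid plexus epithelium or with ventricle wall was not tested. Without mouse 5 none of these lists kept a call. Their medians were then 1.09 for the secreted products, 0.87 for the channels and transporters and 2.15 for the receptor and surface list. They were 1.17 for the transcription factors and 0.93 for the ependyma. With the length trend of each library as a covariate the counts were 4 of 11, 6 of 25, 5 of 25, 2 of 6 and 9 of 24 in the same order. In that fit 127 of all 17054 genes tested were higher.

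**Figure D3:**
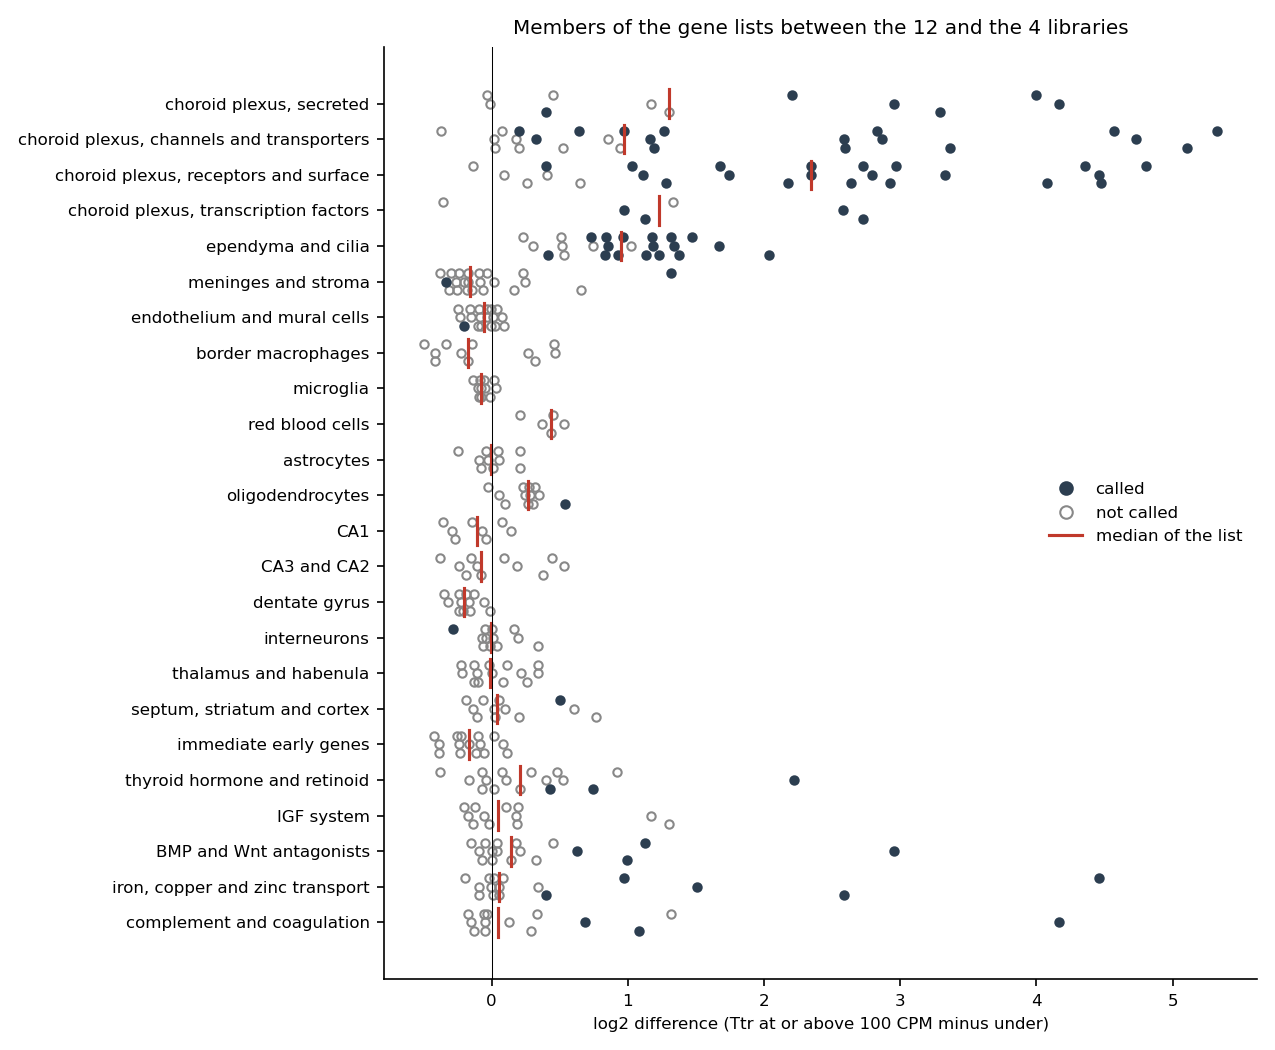
Each point is a member of a gene list, at its log2 difference between the 12 high-Ttr and the 4 low-Ttr libraries; filled points were called and red bars are list medians. The 4 choroid plexus lists drawn have medians from 0.97 to 2.35 and the ependyma list 0.95, while the medians of the other lists lie between -0.20 and 0.44.

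Lists of other cells that border or fill the hippocampus are set against the 3.04% of all genes tested that were called in either direction, so that lists of this size would hold about 1 call or none at the background. Of 22 genes of meninges and stroma, 1 was higher and 1 was lower. Pcolce, an enhancer of collagen processing, was higher by 1.32 on the log2 scale (SE 0.25, edgeR adjusted p = 0.0173), and overlaps Fbxo24 and Gm36266. Fn1, which encodes fibronectin, was lower by a difference of -0.33 (SE 0.09, adjusted p = 0.0475). The summed level of the list was 741 to 913 CPM in the 4 and 617 to 951 CPM in the 12. Of 18 genes of endothelium and mural cells 1 was lower, the vascular growth factor receptor Flt1 (-0.20, SE 0.05, adjusted p = 0.0343), and of 11 microglial, 11 border macrophage and 10 astrocyte genes none was called. Slc1a2, the astrocytes' main glutamate transporter, was at 3313 to 3876 CPM in the 4 and 2981 to 4023 CPM in the 12 (-0.09, SE 0.06, adjusted p = 0.45). The 5 red blood cell genes tested had a median of 0.44 and none was called; all 5 differences were above 0 in the vehicle 1 h and beta-sitosterol 6 h groups (medians 1.18 and 0.45) and all 5 were below 0 in the vehicle 6 h group (median -0.27). Hbb-bs, a beta-globin gene, was at 15.4 to 23.0 CPM in the 4 and 17.8 to 44.6 CPM in the 12.

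Counts of calls in the neuronal lists were also near the background of 3.04%. Of 8 genes of CA1, 11 of CA3 and CA2 and 12 of the dentate gyrus none was called. All 12 dentate differences were below 0 over the 3 groups together, with a median of -0.20 and a range from -0.35 to -0.01; the median was -0.08 with the length trend as a covariate. By group, 11 of the 12 were below 0 in the vehicle 1 h group (median -0.45), 7 in the vehicle 6 h group (median -0.03) and 11 in the beta-sitosterol 6 h group (median -0.12), and 5 of the 12 were below 0 in all 3. The dentate genes summed to 954 to 1190 CPM in the 4 and 716 to 1104 CPM in the 12. Prox1, the homeobox factor of dentate granule cells, was at 145 to 195 CPM in the 4 and 101 to 175 CPM in the 12 (-0.24, SE 0.11, adjusted p = 0.292). Of 12 interneuron genes 1 was lower, Cck, which encodes cholecystokinin (-0.28, SE 0.07, edgeR adjusted p = 0.041). Of 14 thalamic and habenular genes and 15 immediate early genes none was called. The thalamic and habenular differences ran opposite ways between groups: 13 of the 14 were above 0 in the vehicle 1 h group (median 0.65), 5 in the vehicle 6 h group (median -0.07) and 4 in the beta-sitosterol 6 h group (median -0.26). Their part in the other differences of these groups was not tested. Of 12 genes of septum, striatum and cortex 1 was higher, the phosphatase inhibitor gene Ppp1r1b (0.51, SE 0.12, adjusted p = 0.0391). Among 12 oligodendrocyte genes the myelin gene Opalin was higher (0.54, SE 0.12, adjusted p = 0.0192), with 10.8 to 14.8 CPM in the 4 and 15.5 to 29.9 CPM in the 12, and 11 of the 12 differences were above 0. By group, all 12 were above 0 in the vehicle 1 h group (median 0.49) and 11 in the vehicle 6 h group (median 0.38). In the beta-sitosterol 6 h group 9 were above 0, with a median of 0.02.

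Systems to which the choroid plexus contributes were counted as well, again beside 2.88% of all genes higher and 0.158% lower. These lists share members with the choroid plexus lists, among them Sostdc1, Msx1, Steap1, Slc39a4, Slc31a1 and F5. Part of their calls are therefore the same calls counted again. In a list of 17 genes of thyroid hormone and retinoid handling other than Ttr, 3 were higher and none was lower; Rdh5, a retinol dehydrogenase, was the one with the largest difference (2.22, SE 0.42, edgeR adjusted p = 0.0176). Rdh5 shares its locus with Bloc1s1. A list of 17 genes of BMP and Wnt ligands and antagonists also holds the transcription factor Msx1. Of the 17, 4 were higher, namely Sostdc1, Msx1, Sfrp1 (1.00, SE 0.23) and Bmp6 (0.63, SE 0.15), and none was lower. Of 16 genes of iron, copper and zinc transport 5 were higher and none was lower. Beside Steap1 these included the zinc transporter Slc39a4 (2.59, SE 0.48), Steap2 (1.51, SE 0.32) and the copper transporter Slc31a1 (0.97, SE 0.23). Steap1, counted here, passed the filter on low counts only through the 12 high-Ttr libraries. Of 14 complement and coagulation genes F5, C3 and Cd55 were higher, C3 by 1.09 (SE 0.19) and Cd55 by 0.69 (SE 0.15). None of the 12 genes of the IGF system was called between the 2 kinds of library. Within the 12 high-Ttr libraries 3 of these genes rose with Ttr, against 2.14% of all genes tested. For 1 gene of the list all 4 low-Ttr libraries lay below all 12 others, against 2.22% of all genes tested.

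The 27 genes that were lower in the high-Ttr libraries differed by little. The 12 largest differences with at least 1 CPM were those of Wnt16, a Wnt ligand (-0.69, SE 0.17, edgeR adjusted p = 0.0364), Gm16758 (-0.67, SE 0.15), Umodl1 (-0.53, SE 0.12), Zfp366 (-0.52, SE 0.12), Gp1bb (-0.48, SE 0.12), Adap2 (-0.38, SE 0.10), Fn1, the semaphorin Sema6c (-0.33, SE 0.06), Cys1 (-0.32, SE 0.08), M5C1000I18Rik (-0.28, SE 0.08), Cck and Disp3 (-0.26, SE 0.06). Wnt16 was at 0.904 CPM in mouse 5, 1.29 CPM in mouse 14, 1.19 CPM in mouse 17 and 1.09 CPM in mouse 19, and at 0.529 to 1.05 CPM in the 12, so that the ranges overlapped. Of these 12 genes only Gp1bb and Disp3 had all 4 low-Ttr libraries above all 12 others, which 0.0997% of all genes tested had. Disp3 was at 51.7 to 54.2 CPM in the 4 and 36.8 to 51.0 CPM in the 12. Gp1bb lies on the same strand as Sept5 and Gm49601, Adap2 is overlapped by Adap2os, and M5C1000I18Rik by C2cd4b.

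In all, 3 of the 4 groups held both kinds of library, and the difference was computed in each. The log2 difference of Kcne2 was 5.68 in the vehicle 1 h group, 4.87 in the vehicle 6 h group and 4.38 in the beta-sitosterol 6 h group; for Folr1 it was 4.67, 4.02 and 3.64, and for Aqp1 5.12, 4.58 and 3.70. Ttr itself had 6.19, 5.73 and 4.68 in the same order. By edgeR's quasi-likelihood F test of the interaction, no gene of 17054 (0%) had a difference that depended on the group at an adjusted p under 0.05; 368 had an unadjusted p under 0.05, and DESeq2 called 1, Dio3, the enzyme that inactivates thyroid hormone (differences 2.33, -0.75 and 1.88, DESeq2 adjusted p = 0.00122), which is named after its value was seen. Without mouse 17, edgeR called 9 genes, likewise named after their values were seen: Ramp3, Synpo2, Tcf7l2 and Tnnt1, which are in the thalamic and habenular list, and Amotl1, Gm26809, Rab37, Rims3 and Shox2. Tcf7l2, a transcription factor of thalamic neurons, had, with all 16 libraries, differences of 1.41 in the vehicle 1 h group, -0.31 in the vehicle 6 h group and -1.04 in the beta-sitosterol 6 h group, and the contractile protein gene Tnnt1 had 2.03, -0.80 and -0.86. Without mouse 13 the 1 gene called was Tmem40, with 0.79, -4.81 and 0.60 over all 16, and without mouse 8 it was Dio3. Each vehicle group has a single low-Ttr library.

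Within the 12 high-Ttr libraries, which the threshold does not split, levels were set against log2 Ttr, again with a mean for each treatment and time group. A slope of 1 means that a gene changed by the same factor as Ttr. Of 17361 genes tested, 372 rose with Ttr (2.14%) and 8 fell (0.0461%), 380 in all (2.19%). Of the 372, 37 had a slope over 0.9 and 238 a slope under 0.5. All 14 choroid plexus markers rose, Tmem72 included (slope 0.28, SE 0.06, edgeR adjusted p = 0.0145). These 12 libraries are also part of the comparison above, so the 2 sets of values are given side by side and are not independent of each other. The count was 172 without mouse 4.

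Slopes differed between genes. Kcnj13 rose with a slope of 1.02 (SE 0.04, edgeR adjusted p = 5.8e-10), Aqp1 with 1.01 (SE 0.05), Mfrp with 1.05 (SE 0.04), Cldn2 with 1.04 (SE 0.05) and F5 with 1.01 (SE 0.11). Folr1 had 0.94 (SE 0.04) and Kcne2 0.90 (SE 0.05). Enpp2 (0.84, SE 0.04), Otx2 (0.82, SE 0.05), Kl (0.74, SE 0.04) and Sostdc1 (0.70, SE 0.05) rose with slopes below 1. Igf2, which did not pass between the 2 kinds of library, rose within the 12 with a slope of 0.54 (SE 0.04, adjusted p = 1.1e-06); it overlaps Igf2os and Gm49394. Steap2 (0.57, SE 0.04), Msx1 (0.41, SE 0.04), Htr2c (0.40, SE 0.06) and Foxj1 (0.26, SE 0.06) rose with smaller slopes, and the astrocyte gene Slc1a2 had -0.03 (SE 0.04, adjusted p = 0.926). By list, 7 of the 11 secreted products rose, against 2.14% of all genes tested. So did 18 of the 25 channels and transporters, 20 of the 25 genes of the receptor and surface list, 4 of the 6 transcription factors and 14 of the 24 ependymal genes. In the ependymal list the count was 4 without mouse 4, where 170 of all 17348 genes tested rose. None of the 12 lower genes named above passed for its slope; Cck came nearest (-0.12, SE 0.03, adjusted p = 0.0708).

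The genes whose level was most like that of Ttr over the 12 libraries, by Pearson's correlation of log-CPM after the mean of each treatment and time group was taken off, were Kcnj13 (r = 0.997), Drc7 (0.996), Krt18 (0.994), 1500015O10Rik (0.993), Otx2 (0.992), Folr1 (0.992), Mfrp (0.992) and Aqp1 (0.991). Drc7, of the dynein regulatory complex of motile cilia, ran as closely with Ttr as the ion channel Kcnj13 but with a slope of 0.70 (SE 0.04). It was at 2.74 to 4.44 CPM in the 4 and 8.41 to 34.8 CPM in the 12. These correlations describe 12 points that share tissue, library preparation and depth.

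**Figure D4:**
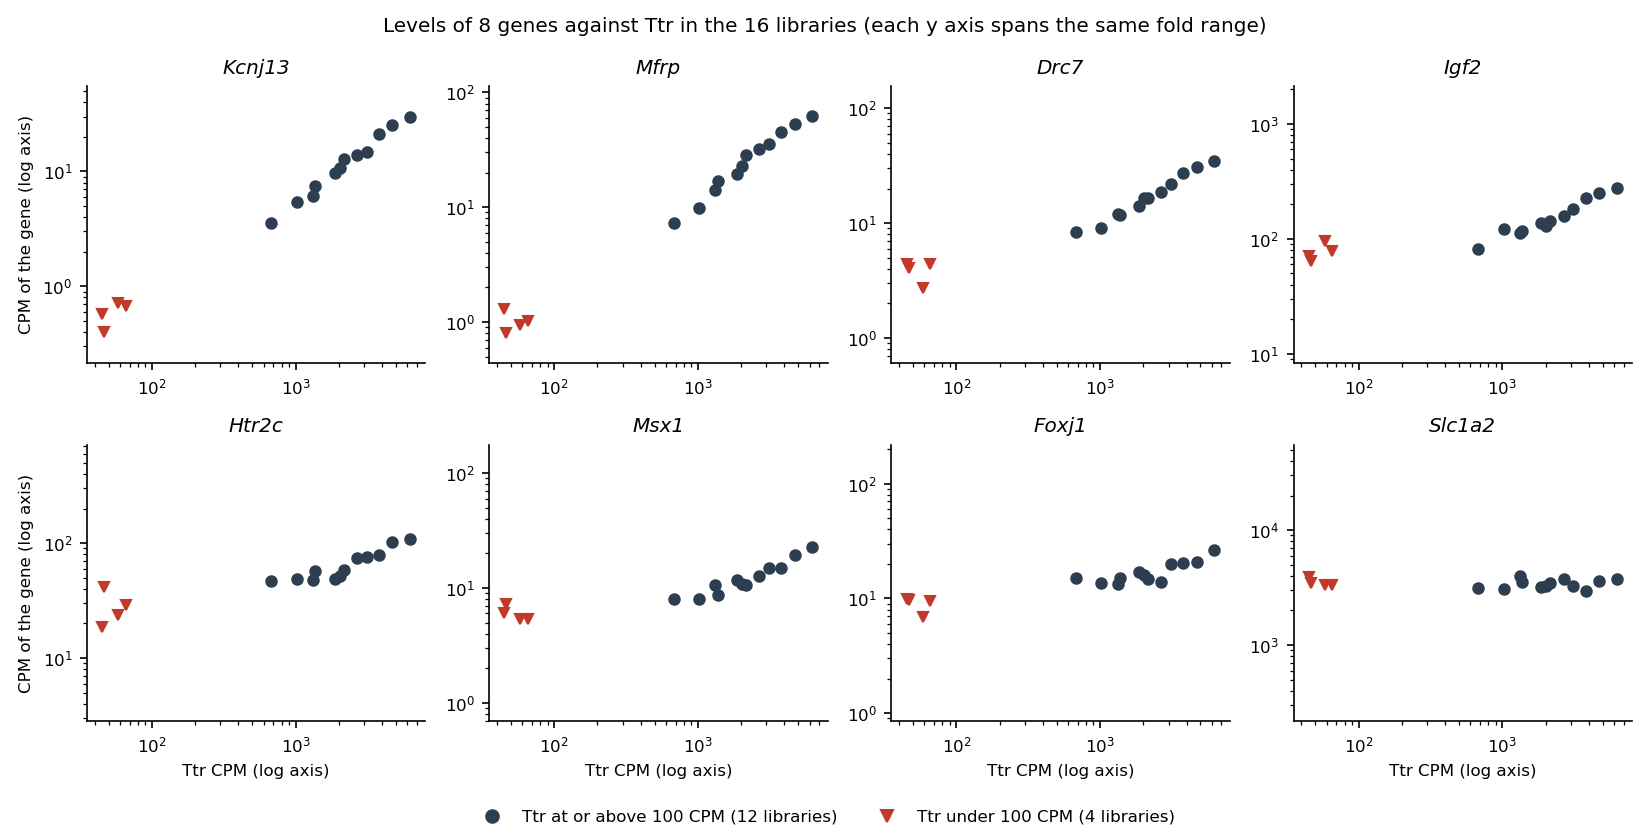
CPM of 8 genes against CPM of Ttr (both log axes) in the 16 libraries; each panel's y axis spans the same fold range, triangles are the 4 low-Ttr libraries and circles the other 12. Kcnj13 and Mfrp climb with Ttr at slopes of 1.02 and 1.05, Drc7, Igf2, Htr2c, Msx1 and Foxj1 at 0.70 to 0.26, and Slc1a2 runs flat.

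The low-Ttr libraries did not hold all choroid plexus genes in the proportion to Ttr that the 12 others held. Per 1000 Ttr reads of the same library, Kcne2 had 5.21 to 7.78 reads in the 12 and 6.29 to 8.65 in the 4, which overlapped, and Slc4a5 had 6.81 to 11.2 in the 12 and 9.61 to 15.4 in the 4. Folr1 had 8.44 to 11.2 reads in the 12 and 18.6 to 29.4 in the 4, Aqp1 6.59 to 8.73 and 11.8 to 16.6, and Kcnj13 4.65 to 5.96 and 8.65 to 12.8, with no overlap for these 3 genes. The ratios stood further apart for Otx2, with 4.24 to 6.17 in the 12 and 21.0 to 42.4 in the 4, for Clic6, with 19.4 to 32.3 and 88.4 to 150, and for Enpp2, with 510 to 858 and 2812 to 3567. Ttr, the divisor, also chose the libraries, so these ratios are a description without a test. Enpp2 is also made by oligodendrocytes and other brain cells, and how much of any gene's remaining level came from other cells was not tested.

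**Figure D5:**
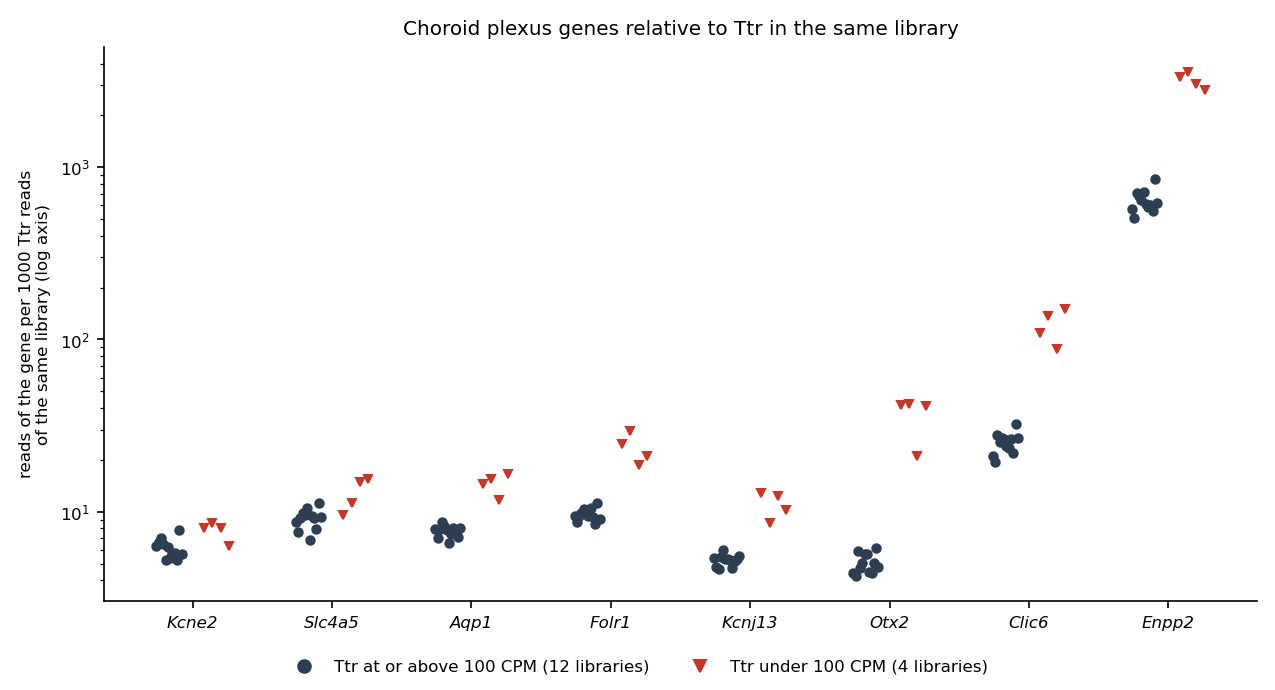
Reads of 8 choroid plexus genes per 1000 Ttr reads of the same library (log axis); circles are the 12 high-Ttr and triangles the 4 low-Ttr libraries. The triangles overlap the circles for Kcne2 and Slc4a5 and lie above them for the other 6 genes, up to 2812 to 3567 against 510 to 858 for Enpp2.

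The libraries as wholes were compared in 7 values by a two-sided exact permutation test of the split within treatment and time groups (96 arrangements, smallest possible p = 0.0104), and none passed after adjustment over the 7. A single value at that smallest p would not have passed the adjustment either. The lack of a call therefore does not show that the libraries were alike in these values. Total counted reads were 24815581 to 27776536 in the 4 and 25924377 to 31266644 in the 12 (exact p = 0.417, adjusted p = 0.552). Reads from the 37 genes of the mitochondrial genome made up 4.51% to 5.28% in the 4 and 4.30% to 6.96% in the 12 (exact p = 0.552), and reads from 80 ribosomal protein genes 0.715% to 0.812% and 0.740% to 1.00% (p = 0.208). Reads of the 4 haemoglobin genes stood at 29.8 to 44.5 CPM in the 4 and 31.6 to 81.5 CPM in the 12 (exact p = 0.0833, adjusted p = 0.486). The number of genes with a read (exact p = 0.448) and the trends of level on transcript length (p = 0.208) and GC content (p = 0.5) complete the set.

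The low-Ttr libraries are unevenly spread over the groups, and the treatment difference of the markers moved when they were left out. At 6 h, with 2 low-Ttr libraries under beta-sitosterol and 1 under vehicle, Kcne2 had a log2 difference between beta-sitosterol and vehicle of -0.65 (SE 1.19, edgeR adjusted p = 0.853) with all 16 libraries and of -0.08 (SE 0.72, adjusted p = 0.987) without the 4. For Folr1 the 2 values were -0.74 (SE 1.11) and -0.19 (SE 0.74), and for Aqp1 -0.69 (SE 1.16) and -0.14 (SE 0.79). At 1 h, with the only low-Ttr library under vehicle, Kcne2 had -1.06 (SE 1.14, edgeR adjusted p = 0.771) with all 16. Without the 4 it had -1.47 (SE 0.59, adjusted p = 0.271). None of these marker values passed the test with either set of libraries. Over all genes, beta-sitosterol against vehicle at 1 h gave 0 calls of 17055 with all 16 libraries and 13 of 17362 without the 4. At 6 h it gave 0 with either set.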

How the data were processed

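RNA sequencing of hippocampal mRNA gave 16 libraries, 1 per mouse by the labels' mouse numbers. The authors deposited raw counts per gene and normalized values, a signal of counts divided by size factors. Per the submitters' processing notes, CASAVA 1.8.2, cutadapt, TopHat2 2.0.10, HTSeq 0.6.1p1, DESeq2 1.6.3 and build GRCm38 were used. No annotation release or strand setting of the counting is given in the sources used here, so genes that overlap another gene are uncertain.

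CPM is a gene's count divided by its library's sum of counts. The main test was edgeR 4.0.16 (R 4.3.3) on the deposited counts: filterByExpr (minimum count 10, minimum total 15), TMM scaling, glmQLFit with robust estimation and glmQLFTest, with a mean per treatment and time group and 1 term for Ttr at or above 100 CPM. P-values were adjusted by Benjamini-Hochberg over all 17054 genes tested, Ttr left out, and called under 0.05. The slope on log2 Ttr used the 12 libraries at or above 100 CPM (17361 genes), and the interaction all 16. The fits were tested on simulated data. All libraries of 1 group differed by more than sampling noise (chi-square per degree of freedom at least 3.26). P-values rest on the spread between these mice that is left after the group means and the Ttr term, which was read from the same libraries. In the comparison of the kinds of library, for genes that follow Ttr, this spread includes that of Ttr within the 12.

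The threshold, members, gene lists and markers were chosen with earlier results of these data known. Lists held 341 genes, all matched to gene IDs, 2 through another symbol. Named genes are the markers; of the genes called, with a mean of at least 1 CPM where they are higher, the 12 largest differences in each direction; of each list up to 4 called members with the largest difference and up to 2 with the highest mean; and the 8 genes most like Ttr. Not every gene that the rule allows is described, and some results of the lists are not reported here. Start windows are from RefSeq, GRCm38.p6. Alternatives were RLE scaling, no filter, a filter at a mean of 5 CPM, DESeq2 1.42.0, limma 3.58.1 on log2 of the deposited normalized values plus 1, no block, a length covariate, thresholds of 200 and 1000 CPM, continuous Ttr, and leaving out groups or mice.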

Additional observations from a re-analysis of the deposited data

Results flagged for a closer look

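In 4 genes, 1 of the 4 low-Ttr libraries stood apart from the other 3, by a gap above 0.829 of their whole range (Dixon's 95% limit for 4 samples). Mouse 19 had the highest Aqp1 of the 4, at 1.09 CPM, and mouse 14 the highest Cfap65, a cilia and flagella associated gene, at 9.07 CPM. Mouse 17 had the lowest Foxj1, at 6.95 CPM, and mouse 5 the lowest Sostdc1, at 1.88 CPM. Chance gives such a gap in about 1 in 20 groups, which comes to about 4 of the 80 values examined.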

How the results depend on the processing

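The 518 genes called between the 2 kinds of library became 141 with the filter at a mean of 5 CPM, 306 without the beta-sitosterol 1 h group, 130 with the length trend as a covariate, 1391 with continuous log2 Ttr (1030 rising and 361 falling), 780 with the threshold at 1000 CPM, and 277 without the 2 libraries with the highest Ttr, a setting chosen after seeing the data. Leaving out each mouse gave 0 to 793. The cause was not tested. With RLE scaling 497 of the 518 were called again, with DESeq2 503 and with limma 514. The 380 genes called for their slope became 214 with the stricter filter and 656 without the block, and 172 to 469 with a mouse left out. The interaction gave 0 genes, 1 with DESeq2, 1 without the beta-sitosterol 1 h group and 0 to 9 with a mouse left out. Of 73 named genes, 55 were called; none changed direction under the 12 other settings or the 16 single mice left out, where tested; the filter at a mean of 5 CPM left 18 of them untested. All 55 lost the call without mouse 5, 40 without mouse 14, 31 without mouse 20 and 35 with the length trend as a covariate. Kcne2 ranged from 4.92 to 5.65 on the log2 scale with a mouse left out. Among library values, with a mouse left out, the difference in total reads ran from -564400 (without mouse 14) to 1283000, in genes with a read from -20.5 (without mouse 14) to 230.4 and in percent mitochondrial from -0.038 (without mouse 5) to 0.271; these 3 changed sign, none had passed a test. No paired analysis was possible because the mouse numbers are not shared between groups. Levels of a few reads in the low-Ttr libraries limit the precision of the largest differences.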
